A study of Mus musculus with 18 samples.

Results

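Solute carriers are membrane transporters, and 63 genes of this superfamily were followed through the activation of CD8 T cells. The members were the protein-coding genes whose symbol has the form Slc, a family number, the letter a and a member number. Slc2a1 and Slc2a3 were left out, and a normalized value of at least 1 was needed in 3 or more of the 18 libraries. Of 226 genes with such a symbol, 63 met this rule and 163 did not. The members were thus chosen by the RNA levels described below. Which members lie on which side of a comparison is therefore partly fixed by the rule, and counts of members are descriptions.

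The libraries were polyA-selected, stranded and sequenced in bulk. CD8 T cells were sorted after 24 h of culture from spleen cells of P14 TCR transgenic mice, whose receptor is specific for gp33, a peptide of lymphocytic choriomeningitis virus. Recombinant IL-12 (2 ng/ml) and IL-2 (50 U/ml) were present in every culture. One genotype was wild type (WT), and the other was a CD8-specific knockout (KO) of Pik3ip1, whose protein TrIP is known as a brake on PI3 kinase. Each genotype was cultured with no peptide, with gp33 at 100 ng/ml, or with gp33 at 100 ng/ml and 10 µM IC87114, an inhibitor of PI3K delta. These were 6 groups of 3 libraries. The promoter that drives the recombinase and the age of the mice are not given in the sources used here. Titles and treatment fields assign gp33 to the stimulated groups alone and were followed, although the protocol text names it for every culture. Nothing in the labels says that replicates came from separate animals, so p-values measure the spread between these libraries, which may be technical.

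A resting T cell has modest needs for nutrients. After antigen recognition it grows and divides, and takes up amino acids, glucose, nucleosides, phosphate, iron and vitamins in larger amounts. Amino acid carriers such as the heterodimers built on the Slc3a2 chain feed the growth kinase mTOR, monocarboxylate carriers of the Slc16 family export the lactate made by glycolysis, and the Slc25 family moves metabolites and nucleotides across the inner mitochondrial membrane.

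The libraries labelled KO did not show the loss that their label names. Pik3ip1 (ENSMUSG00000034614) had a normalized value of 30.95 ± 2.43 (SD, n = 3) in WT without peptide and of 76.1 ± 2.36 in the libraries labelled KO. With gp33 it was 0.764 ± 0.105 against 1.61 ± 0.0687, and with gp33 and the inhibitor 0.632 ± 0.0213 against 2.42 ± 0.213. Genotype directions below are therefore those of the library labels. Markers of CD8 T cells, 7 of 7 genes, were present in all libraries. They summed to between 1347 and 1432 in WT and between 1449 and 1486 in the libraries labelled KO without peptide. With gp33 these sums were 472 to 492 and 532 to 571, and with the inhibitor added 590 to 777 and 568 to 584. All 7 were called lower with gp33 than without peptide in both genotypes, beside 38.6% and 32.3% of protein-coding genes. The 10 B cell markers summed to between 3211 and 7202 in WT and between 1786 and 21090 in the libraries labelled KO without peptide, and to between 117 and 1030 in the cultures with gp33. In the library with the highest sum, 20464 of it was Igkc. The 10 myeloid and dendritic markers summed to between 63.4 and 88.0 in WT and between 139 and 223 in the libraries labelled KO without peptide. With gp33 these sums were 43.03 to 52.3 and 110 to 149. The 5 NK cell markers summed to between 3.75 and 5.21 in WT and between 15.8 and 17.5 in the libraries labelled KO without peptide, and to 3.91 to 4.49 and 9.16 to 11.3 with gp33. The 5 CD4 T cell markers summed to between 4.12 and 5.10 and between 5.64 and 6.38 without peptide, and to 4.66 to 5.34 and 7.82 to 8.88 with gp33. Without peptide, the libraries labelled KO had 6 of the 8 B cell markers tested called lower than in WT. Called higher were 3 of 5 myeloid, 3 of 3 NK, 2 of 2 erythroid and 1 of 2 CD4 T cell markers. With gp33, 3 of 3 NK, 2 of 2 CD4 T cell and 1 of 5 myeloid markers were called higher. The 2 CD4 T cell markers tested were Cd5 and Tnfrsf25. Cd4, Zbtb7b and Foxp3 were not tested, at 0.0643, 0.147 and 0.0978 in the libraries labelled KO with gp33. Most of the NK sum with gp33 was Klrk1, at 3.74 in WT and 8.56 in the libraries labelled KO. Ncr1 and Klrb1c were not tested, at 0.00861 and 0.0260 in the latter. No marker of these lists was at 0 in all libraries. The part of these cells in the results was not tested, and in bulk RNA fewer cells of a type and less RNA per cell cannot be told apart. Replicate 2 of WT with gp33 and inhibitor stood furthest from its group, with a mean correlation of 0.961 to the other 2 libraries, against a median of 0.989 over all libraries.

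Normalized values are the deposited log2 values taken back to a linear scale, and they are compared within a gene only. The marker sums above add genes of unlike level, so the genes with the highest values weigh most. Log2 fold changes and their standard errors (SE) come from a limma model of log2(value + 1) over all 10257 genes that passed the same minimum. The threshold for a call was an adjusted p of 0.05 (Benjamini-Hochberg). Adding 1 before the log shrinks the change of a gene whose values are low: with 0.1 in place of 1, the gp33 response of Slc16a3 in WT was 5.34 in place of 2.48.

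By substrate class, the members were 22 of 43 mitochondrial carriers, 8 of 25 carriers of sugars and monocarboxylates and 8 of 47 carriers of vitamins, lipids and other organic solutes. The others were 7 of 34 amino acid carriers, 6 of 25 metal carriers, 4 of 7 carriers of nucleosides and nucleobases, 3 of 5 nucleotide sugar carriers and 3 of 36 carriers of inorganic ions. Slc7a6os and Slc9a3r1 match the symbol but are not transporters. Of the members, 28 reached a value of 1 in all 18 libraries. Another 6 reached it in exactly 3, and their third-highest value lay between 1.04 for Slc25a30 and 1.45 for Slc28a2b. Just outside, 13 genes reached 1 in 1 or 2 libraries, and Slc35a2 came nearest with a third-highest value of 0.999.

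The minimum was reached only in libraries without peptide by 11 members and only in libraries with gp33 by 9, so that these 20 had to differ between the conditions. Slc12a7, Slc28a2 and Slc28a2b reached it only in WT, and Slc7a3, Slc25a40 and Slc39a4 only in the libraries labelled KO. Slc7a3, Slc16a6, Slc19a2 and Slc39a1 reached it only with gp33 alone. For each of these members the comparison that the rule fixed is given below with no p. The genotype differences in response of Slc39a4 and Slc19a2 are given with no p as well.

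Stimulation with gp33 moved most of the solute carrier genes. In WT, 30 members were called higher and 22 lower, where 39.1% of the 5800 protein-coding genes tested were called higher and 38.6% lower. For the libraries labelled KO the counts were 37 higher and 16 lower, against a background of 43.4% higher and 32.3% lower. Most protein-coding genes were thus called as well, and these counts by themselves set the members little apart. The median log2 fold change of the 63 members was 0.14 in WT and 0.43 in the libraries labelled KO, and over all protein-coding genes tested it was 0.02 and 0.14. In both genotypes 29 members were called higher and 16 lower. The share of all protein-coding genes called the same way in both was not computed, so this joint count is a description. Slc38a2 and Slc25a44 were called lower in WT and higher in the libraries labelled KO, and 5 members were called in neither. The median change of all genes tested was 0.19 in WT and 0.20 in the libraries labelled KO, and median-of-ratios scaling moved these to 0.03 and 0.01. Under that scaling 25 members were called higher and 26 lower in WT.

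**Figure D1:**
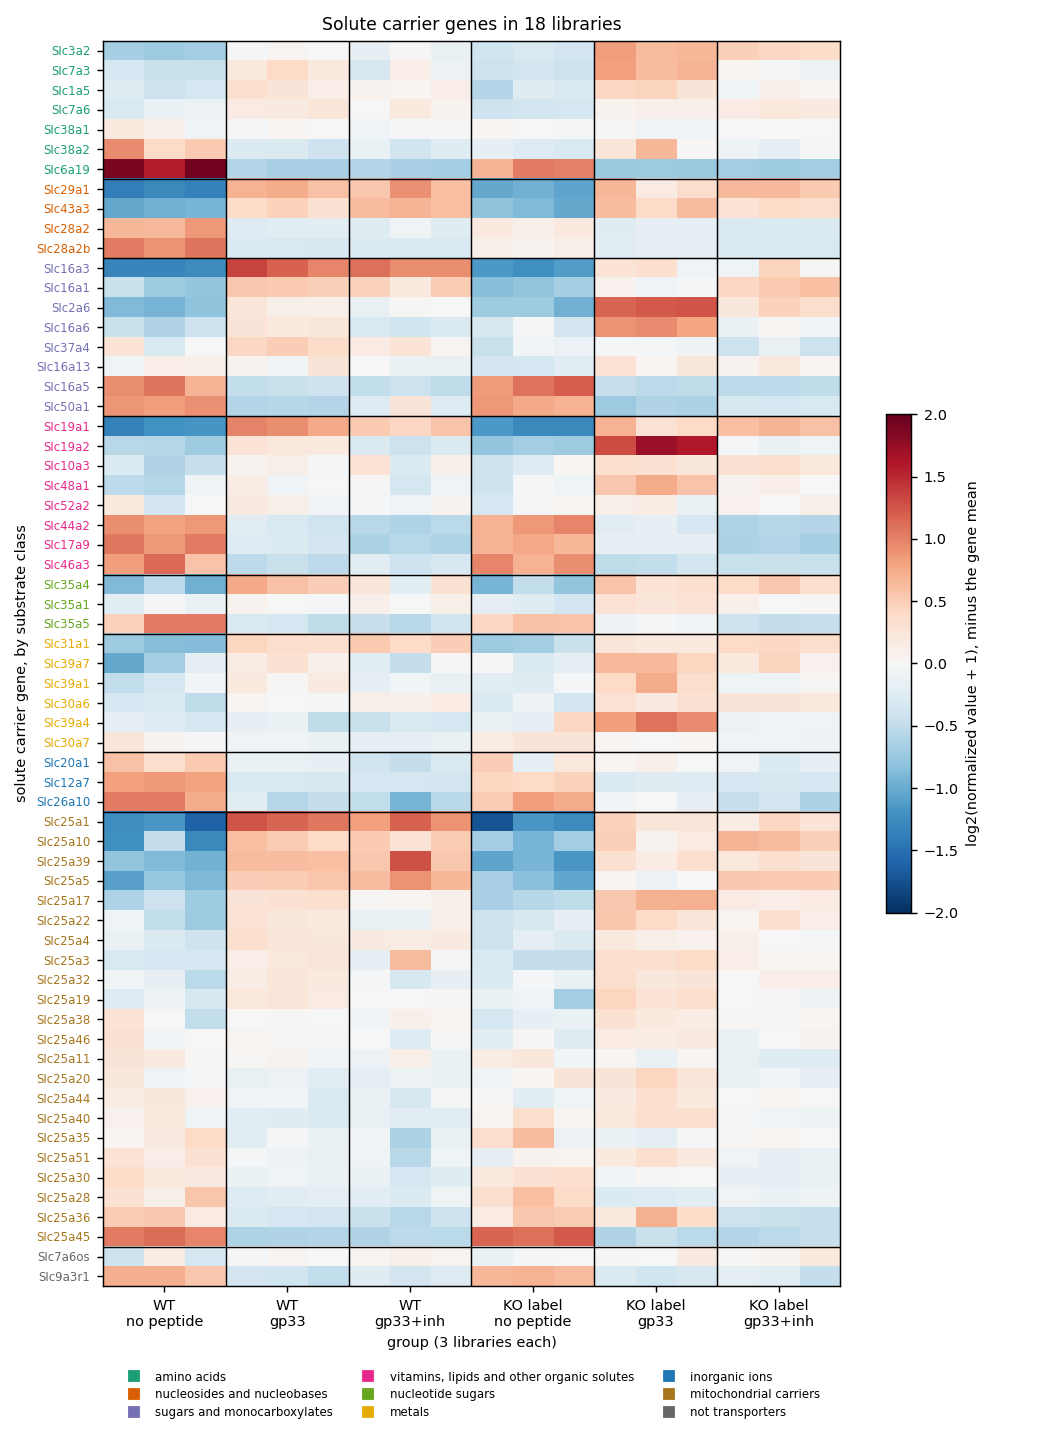
Levels of the 63 solute carrier genes (rows, ordered by substrate class) in the 18 libraries (columns, 3 per group), as log2(normalized value + 1) minus the mean of the gene over all libraries, from blue (below its mean) to red (above). Slc16a3, Slc25a1 and Slc19a1 are blue without peptide and red in WT with gp33, while Slc6a19, Slc16a5 and Slc25a45 are red only without peptide.

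Amino acid carriers split into genes that rose with gp33 and genes that were highest at rest. Slc3a2 encodes CD98, the heavy chain that carries the light chains of several amino acid exchangers to the cell surface. Its normalized values were 6.30, 6.06 and 6.21 in WT without peptide, 10.2, 10.99 and 10.6 with gp33, and 9.36, 10.8 and 9.45 with the inhibitor added. Those labelled KO had 7.74, 8.34 and 7.87 without peptide, 19.5, 16.98 and 17.4 with gp33, and 15.1, 14.4 and 13.9 with gp33 and inhibitor. The groups of the 2 genotypes did not overlap under any of the 3 conditions, with the libraries labelled KO higher each time. The gp33 response was 0.69 in WT and 1.08 in the libraries labelled KO (SE 0.07 each, adjusted p = 9.14e-07 and 8.77e-09), and the response differed by 0.39 between genotypes (SE 0.11, adjusted p = 0.0153). This difference was not called with median-of-ratios scaling (adjusted p = 0.0559).

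Slc1a5, the glutamine and neutral amino acid carrier ASCT2, rose with gp33 in both genotypes. It went from 6.12 ± 0.443 to 9.66 ± 0.730 in WT (log2 fold change 0.58 with an SE of 0.10, adjusted p = 7.86e-05) and from 6.01 ± 0.883 to 10.6 ± 0.790 in the libraries labelled KO (0.74, SE 0.10, adjusted p = 8.78e-06). No library without peptide exceeded 6.65, and none with gp33 alone was under 8.86. Its genotype difference with gp33 was 0.13 (adjusted p = 0.38).

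Slc38a2, a sodium-coupled carrier of small neutral amino acids, moved in opposite directions in the 2 genotypes. In WT its values were 17.8, 11.9 and 13.02 without peptide and 7.03, 6.97 and 6.30 with gp33. Those labelled KO had 7.69, 7.12 and 6.90 without peptide and 10.5, 14.4 and 8.93 with gp33. The WT libraries fell by 0.95 on the log2 scale (SE 0.15, adjusted p = 4.84e-05), and those labelled KO rose by 0.55 (SE 0.15, adjusted p = 0.00501). The rise in the libraries labelled KO was not called with median-of-ratios scaling, where it was 0.32 (adjusted p = 0.0731). The difference between the responses was 1.51 (SE 0.22, adjusted p = 0.000183). Its relative Slc38a1 stayed between 0.965 and 1.38 in all libraries and was called in none of the 9 comparisons.

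Slc6a19, the neutral amino acid carrier known from gut and kidney epithelium, was a gene of the unstimulated cultures. Its values were 5.42, 4.18 and 5.65 in WT and 1.80, 2.56 and 2.51 in the libraries labelled KO, and no library with gp33 exceeded 0.159. Without peptide the libraries labelled KO were 0.89 lower on the log2 scale (SE 0.10, adjusted p = 1.86e-05). Slc7a3, a cationic amino acid carrier, had the reverse pattern, with values of at most 0.0619 without peptide. With gp33 it was at 0.558, 0.785 and 0.562 in WT and at 1.40, 1.09 and 1.18 in the libraries labelled KO, and with the inhibitor added the latter were at 0.399, 0.324 and 0.252.

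Slc7a5, the light chain LAT1 that pairs with Slc3a2, did not reach the minimum in any library and was not tested. Its values were 0.0751 to 0.141 in WT without peptide, 0.590 to 0.706 with gp33 and 0.389 to 0.445 with the inhibitor. Under the KO label they were 0.0598 to 0.263, 0.674 to 0.940 and 0.546 to 0.589.

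**Figure D2:**
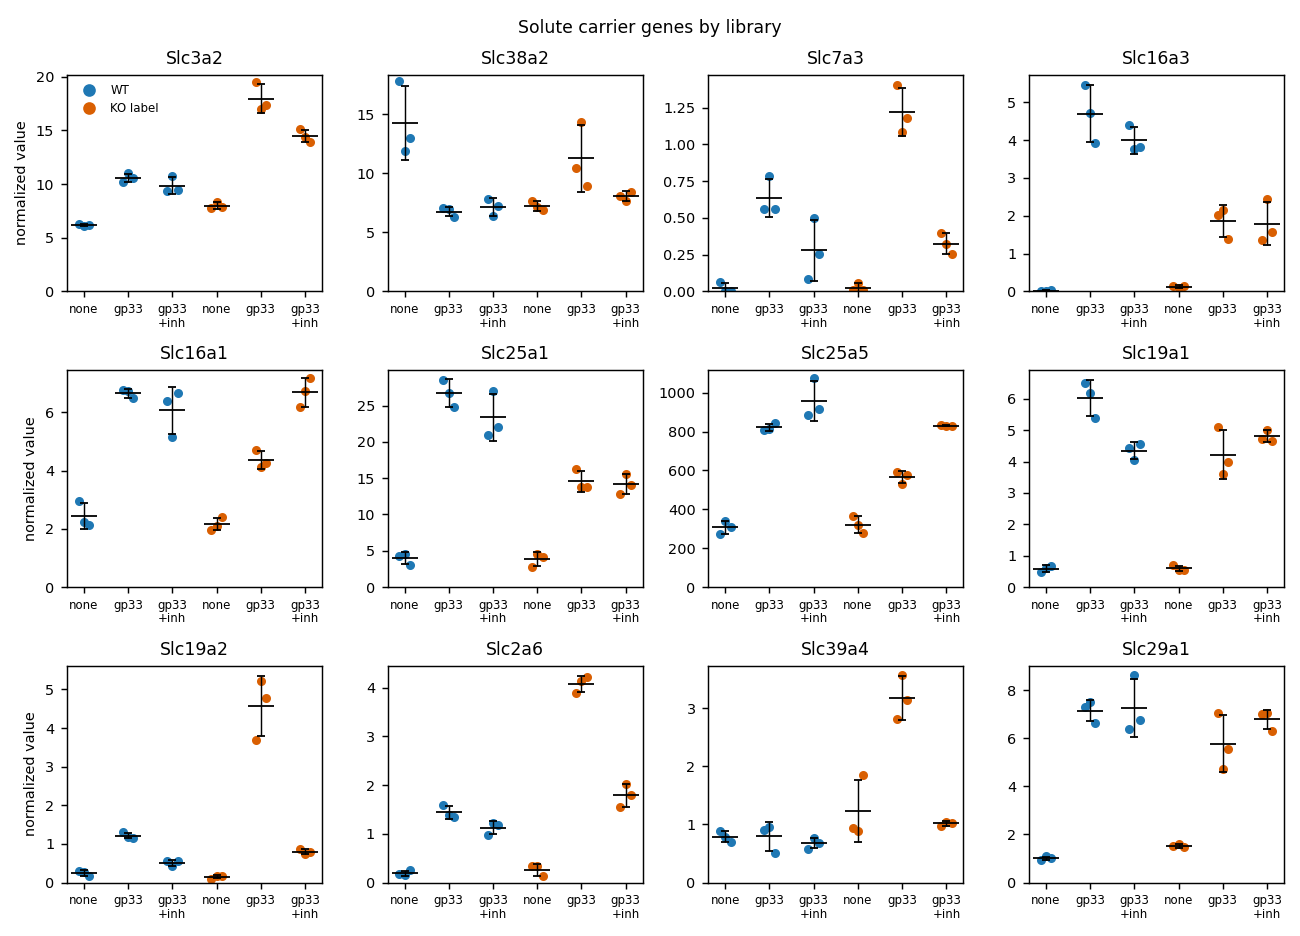
Normalized values (linear scale, y axis) of 12 solute carrier genes in every library, by treatment (no peptide, gp33, gp33 with inhibitor), with WT in blue and the libraries labelled KO in orange; horizontal lines are group means and bars are SD over 3 libraries. Slc19a2 reaches 3.70 to 5.22 in the libraries labelled KO with gp33 and stays at or under 1.30 in the other 5 groups.

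Nucleoside carriers exchanged places on stimulation. Slc29a1, the equilibrative nucleoside transporter ENT1, had values of 0.954, 1.08 and 1.01 in WT without peptide and of 7.30, 7.51 and 6.66 with gp33. The libraries labelled KO had 1.52, 1.61 and 1.46 without peptide and 7.06, 4.74 and 5.54 with gp33. It rose by 2.02 in WT (SE 0.12, adjusted p = 9.56e-10) and by 1.41 in the libraries labelled KO (SE 0.12, adjusted p = 6.4e-08), and the rise was smaller in the latter by a tested difference of -0.61 (SE 0.17, adjusted p = 0.0153). The purine nucleobase carrier Slc43a3 went from at most 0.215 without peptide to between 1.57 and 2.39 in the libraries with gp33, with or without inhibitor.

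The concentrative purine nucleoside carrier Slc28a2 and its near copy Slc28a2b were highest in WT without peptide. Slc28a2b had values of 1.67, 1.45 and 1.74 there, 0.420, 0.368 and 0.413 in the libraries labelled KO without peptide, and at most 0.144 in any library with gp33. Slc28a2 was at 1.14, 1.14 and 1.48 in WT and 0.552, 0.453 and 0.560 in the libraries labelled KO without peptide. The 2 genes are similar enough in sequence that the division of reads between them is uncertain.

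Carriers of sugars and monocarboxylates differed between the genotypes in both directions. Slc16a3, the lactate exporter MCT4, was near 0 in WT without peptide, with values of 0.00486, 0.00435 and 0.0494. With gp33 it reached 5.45, 4.72 and 3.93 in WT but 2.02, 2.17 and 1.38 in the libraries labelled KO. With the inhibitor added it was at 4.41, 3.77 and 3.81 in WT and at 1.36, 2.44 and 1.57 in the libraries labelled KO. The libraries labelled KO lay below every WT library in both conditions with gp33. The difference was -0.998 with gp33 alone (SE 0.14, adjusted p = 0.000113) and -0.86 with the inhibitor (SE 0.14, adjusted p = 0.00187). The second was not called when only the 6 libraries compared were fitted (adjusted p = 0.0997).

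Slc16a1, the lactate and pyruvate carrier MCT1, rose from 2.43 ± 0.441 to 6.67 ± 0.155 in WT and from 2.16 ± 0.218 to 4.35 ± 0.310 in the libraries labelled KO. With gp33 the latter were lower by 0.52 on the log2 scale (SE 0.10, adjusted p = 0.0023). The inhibitor changed this: in the libraries labelled KO, Slc16a1 rose to 6.70 ± 0.498 (log2 fold change 0.52, SE 0.10, adjusted p = 0.00174), and in WT it was at 6.07 ± 0.817 (-0.12, adjusted p = 0.48). The effect of the inhibitor differed between genotypes by 0.65 (SE 0.15, adjusted p = 0.0131).

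Slc2a6, the hexose transporter GLUT6 known from lysosomal membranes, had values of 1.59, 1.38 and 1.34 in WT with gp33 and 3.88, 4.13 and 4.21 in the libraries labelled KO. The latter were higher by 1.06 (SE 0.09, adjusted p = 6.75e-07). Without peptide no library exceeded 0.338. With the inhibitor its values were 0.968, 1.22 and 1.19 in WT and 1.55, 2.03 and 1.79 in the libraries labelled KO. The inhibitor lowered it by 0.87 in the libraries labelled KO (SE 0.09, adjusted p = 3.59e-06), and by 0.67 more than in WT (SE 0.12, adjusted p = 0.00307). This difference in the inhibitor effect was not called with an offset of 0.1 (adjusted p = 0.123).

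Slc16a6, a member of the monocarboxylate carrier family, was lower with the inhibitor in both genotypes. It went from 1.24, 1.14 and 1.19 to 0.510, 0.411 and 0.529 in WT, and from 2.46, 2.59 and 2.23 to 0.697, 0.912 and 0.802 in the libraries labelled KO. Slc16a6 reached the minimum only with gp33 alone, so a lower value with the inhibitor is partly fixed by the rule. Its log2 fold change was -0.56 in WT and -0.93 in the libraries labelled KO (SE 0.09 each), given with no p. Its exons overlap those of Amz2 and Arsg on the opposite strand, and whether the counting used strand is not stated. Slc16a5 and Slc50a1 went the other way on stimulation: Slc16a5 went from at least 1.36 in every library without peptide to at most 0.109 with gp33. Slc50a1, a glucose carrier, fell from 74.4 ± 1.95 to 26.5 ± 0.217 in WT (log2 fold change -1.46 with an SE of 0.11, adjusted p = 1.55e-08) and from 69.2 ± 4.36 to 25.2 ± 1.09 in the libraries labelled KO (-1.42, SE 0.11, adjusted p = 2.52e-08).

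The promoters of 4 carriers are printed because these genes split by genotype under gp33, Slc16a3 and Slc25a1 lower and Slc19a2 and Slc2a6 higher in the libraries labelled KO. They are the 250 bases before each gene's start, from RefSeq on GRCm38.p6, read 5′ to 3′ along the gene's strand. Capitals mark ACGTG, the core of the element bound by hypoxia-inducible factors, or CACGTG, the E-box bound by Myc and related factors, searched on both strands.
Slc16a3, chr11:120948817-120949066, plus strand: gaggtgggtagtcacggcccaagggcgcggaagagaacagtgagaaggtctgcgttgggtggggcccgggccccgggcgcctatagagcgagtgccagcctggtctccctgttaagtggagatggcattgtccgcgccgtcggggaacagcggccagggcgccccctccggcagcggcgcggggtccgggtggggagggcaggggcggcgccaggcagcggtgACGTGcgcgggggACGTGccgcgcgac
Slc25a1, chr16:17928220-17928469, minus strand: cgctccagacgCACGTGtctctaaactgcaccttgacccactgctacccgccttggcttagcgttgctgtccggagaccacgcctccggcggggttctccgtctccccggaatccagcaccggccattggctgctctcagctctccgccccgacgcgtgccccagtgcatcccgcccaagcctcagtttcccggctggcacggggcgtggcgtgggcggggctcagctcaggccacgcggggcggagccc
Slc19a2, chr1:164248796-164249045, plus strand: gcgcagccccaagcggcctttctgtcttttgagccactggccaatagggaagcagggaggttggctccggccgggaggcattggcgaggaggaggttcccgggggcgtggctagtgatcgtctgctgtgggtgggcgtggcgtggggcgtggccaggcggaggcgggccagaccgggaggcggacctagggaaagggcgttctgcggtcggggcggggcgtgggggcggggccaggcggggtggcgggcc
Slc2a6, chr2:27027999-27028248, minus strand: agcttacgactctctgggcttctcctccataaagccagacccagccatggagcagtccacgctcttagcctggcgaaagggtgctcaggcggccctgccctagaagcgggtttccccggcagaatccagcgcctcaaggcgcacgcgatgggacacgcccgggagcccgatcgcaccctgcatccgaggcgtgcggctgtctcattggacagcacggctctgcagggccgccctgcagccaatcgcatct

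ACGTG starts 27 and 14 bases before the start of Slc16a3. The single CACGTG of Slc25a1 contains ACGTG on both strands and lies 239 and 238 bases before its start. Neither motif was in the windows of Slc19a2 and Slc2a6. ACGTG was in 15 of the 44 members with a promoter in the table (34.1%) and in 26.3% of 4630 protein-coding genes tested. CACGTG was in 7 of 44 (15.9%) against 10.2%. TGATGNAA, the letters of the element bound by ATF4 with a partner, was in 2 of 44 (4.55%), Slc26a10 and Slc50a1, against 2.44%. A match is a description of the letters in the window and not a binding site.

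Vitamin carriers responded by gene. Slc19a2, the thiamine carrier THTR1, was at 1.30, 1.19 and 1.16 in WT with gp33 and at 3.70, 5.22 and 4.79 in the libraries labelled KO. With the inhibitor added it was at 0.550, 0.416 and 0.549 in WT and at 0.868, 0.742 and 0.781 in the libraries labelled KO. Without peptide no library of either genotype exceeded 0.291. The libraries labelled KO were higher with gp33 by 1.32 (SE 0.09, adjusted p = 9.84e-08). The log2 fold change with the inhibitor was -0.56 in WT and -1.62 in the libraries labelled KO (SE 0.09 each), and these effects differed by -1.06, given with no p because the minimum was reached only with gp33 alone.

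Slc19a1, the reduced folate carrier, was at most 0.696 without peptide and at 6.51, 6.202 and 5.40 in WT with gp33. The libraries labelled KO were at 5.09, 3.60 and 3.98 with gp33, lower by 0.44 on the log2 scale (SE 0.10, adjusted p = 0.00554). With the inhibitor the genotypes were at 4.34 ± 0.271 and 4.81 ± 0.189 (difference 0.12, adjusted p = 0.52).

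Slc48a1, a heme carrier of the endosome and lysosome, was higher in the libraries labelled KO with gp33 (6.32 ± 0.581 against 3.87 ± 0.379, log2 fold change 0.59, SE 0.14, adjusted p = 0.00724). The inhibitor lowered it in the libraries labelled KO to 3.99 ± 0.220 (-0.55, SE 0.14, adjusted p = 0.0089). In WT with the inhibitor it was at 3.35 ± 0.563 (-0.17, adjusted p = 0.477). The genotype difference was not called for its gp33 response (0.37, adjusted p = 0.188) or its inhibitor effect (-0.38, adjusted p = 0.244). It has 1 pseudogene copy, and 29 bases of its exons overlap Hdac7 on the opposite strand. Slc17a9, the vesicular nucleotide carrier, and Slc44a2, a choline carrier-like protein, reached the minimum only without peptide, and both were lowered further by the inhibitor in both genotypes. In the libraries labelled KO, Slc17a9 went from 0.887 ± 0.0107 to 0.375 ± 0.0376 (-0.46, SE 0.06, adjusted p = 0.000109) and Slc44a2 from 0.877 ± 0.117 to 0.465 ± 0.0266 (-0.36, SE 0.08, adjusted p = 0.0033). In WT the changes were -0.30 (SE 0.06, adjusted p = 0.0105) and -0.27 (SE 0.08, adjusted p = 0.0476). The call of Slc44a2 in WT was lost in 14 of the 18 fits that left out 1 library (adjusted p between 0.0503 and 0.186), and that of Slc17a9 without replicate 1 or replicate 2 of WT with gp33 (adjusted p = 0.0588 and 0.0556). Slc46a3, a lysosomal carrier, went from between 1.26 and 2.36 without peptide to at most 0.311 in any library with gp33.

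Of the nucleotide sugar carriers, Slc35a1, which brings CMP-sialic acid into the Golgi, was called for stimulation in the libraries labelled KO only (2.14 ± 0.202 to 3.60 ± 0.0851, log2 fold change 0.55, SE 0.07, adjusted p = 9.22e-06). Its response differed between genotypes by 0.41 (SE 0.10, adjusted p = 0.00961). Slc35a4 rose in both genotypes, from 26.02 ± 4.47 to 69.8 ± 6.74 in WT (1.40, SE 0.16, adjusted p = 1.43e-06) and from 27.0 ± 4.38 to 60.1 ± 7.04 in the libraries labelled KO (1.13, SE 0.16, adjusted p = 1.55e-05). Slc35a5 fell from 3.88 ± 1.04 to 1.06 ± 0.155 in WT (-1.23, SE 0.12, adjusted p = 3.85e-07).

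Among the metal carriers, Slc31a1, the copper importer CTR1, rose from 1.13 ± 0.135 to 3.84 ± 0.181 in WT (log2 fold change 1.18 with an SE of 0.08, adjusted p = 4.54e-09). In the libraries labelled KO it rose from 1.44 ± 0.261 to 3.33 ± 0.0804 (0.83, SE 0.08, adjusted p = 2.87e-07), which was less than in WT by a tested difference of -0.35 (SE 0.11, adjusted p = 0.0326). Slc39a7, the zinc channel of the endoplasmic reticulum, rose in both genotypes, by 0.81 in WT (SE 0.18, adjusted p = 0.00099) and by 0.72 in the libraries labelled KO (SE 0.18, adjusted p = 0.00266).

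Slc39a4, a zinc importer of the cell surface known from the gut, stood out in 1 group. Its values were 2.81, 3.58 and 3.14 in the libraries labelled KO with gp33, 0.906, 0.963 and 0.513 in WT with gp33, and 0.979, 1.05 and 1.02 in the libraries labelled KO with gp33 and inhibitor. In the libraries labelled KO without peptide 1 library was at 1.85 and the others at 0.945 and 0.893. The inhibitor lowered Slc39a4 in the libraries labelled KO by 1.05 on the log2 scale (SE 0.14, adjusted p = 5.83e-05), and the log2 fold change in WT was -0.09 (adjusted p = 0.72). The inhibitor effects differed by -0.96, given with no p because the minimum was reached only under the KO label.

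All 3 members that carry inorganic ions were called lower in WT with gp33 than without peptide, beside 38.6% of protein-coding genes. Of these, Slc12a7 reached the minimum only in WT without peptide, so its fall is partly fixed by the rule. Slc20a1, the phosphate importer PiT1, fell from 4.18 ± 0.417 to 2.30 ± 0.0077 in WT (log2 fold change -0.65 with an SE of 0.13, adjusted p = 0.000358), and in the libraries labelled KO the change was -0.12 (adjusted p = 0.41). Slc26a10 fell from 4.58 ± 0.626 to 1.19 ± 0.292 in WT (-1.35, SE 0.14, adjusted p = 4.01e-07) and from 3.73 ± 0.553 to 1.78 ± 0.173 in the libraries labelled KO (-0.76, SE 0.14, adjusted p = 0.000161), and its exons overlap B4galnt1 on the opposite strand. Slc12a7, a potassium chloride cotransporter, was at 1.42, 1.49 and 1.39 in WT and 0.846, 0.800 and 0.872 in the libraries labelled KO without peptide, and at most 0.158 with gp33.

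Mitochondrial carriers were the largest class, and 10 of the 22 were called higher and 7 lower with gp33 in WT, beside 39.1% and 38.6% of protein-coding genes. In the libraries labelled KO 14 were called higher and 3 lower, beside 43.4% and 32.3%, and the difference between these counts was not tested. Slc25a1, the citrate carrier that feeds lipid synthesis, rose most in WT. Its values were 4.28, 4.57 and 3.06 without peptide and 28.6, 26.8 and 24.8 with gp33 in WT, and 2.76, 4.54 and 4.16 and 16.2, 13.7 and 13.8 in the libraries labelled KO. The genotypes overlapped without peptide and did not overlap with gp33. The rise was 2.49 in WT (SE 0.15, adjusted p = 2e-09) and 1.71 in the libraries labelled KO (SE 0.15, adjusted p = 1.61e-07), and the responses differed by -0.78 (SE 0.22, adjusted p = 0.0171). With the inhibitor the values were 20.95, 27.1 and 22.1 in WT and 12.8, 15.6 and 14.1 in the libraries labelled KO.

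Slc25a5, an ADP/ATP carrier, rose from 307 ± 34.6 to 821 ± 17.7 in WT (log2 fold change 1.42 with an SE of 0.10, adjusted p = 8.38e-09) and from 321 ± 42.2 to 567 ± 31.3 in the libraries labelled KO (0.82, SE 0.10, adjusted p = 4.05e-06). With gp33 the libraries labelled KO were lower by 0.54 (SE 0.10, adjusted p = 0.00144). The inhibitor raised Slc25a5 in them to 830 ± 4.07 (0.55, SE 0.10, adjusted p = 0.000923). In WT with the inhibitor it was at 958 ± 103 (0.22, adjusted p = 0.202). The difference between these inhibitor effects was not called (0.33, adjusted p = 0.157). The gene has 7 pseudogene copies of at least 90% identity, so its values depend on how reads were divided. The phosphate carrier Slc25a3 and the ADP/ATP carrier Slc25a4 rose less: Slc25a4 went from 77.8 ± 7.38 to 113 ± 3.87 in WT (0.54, SE 0.08, adjusted p = 2.15e-05), a change of 0.31 with median-of-ratios scaling. Slc25a3 went from 30.1 ± 0.646 to 43.7 ± 1.65 in WT (0.53, SE 0.15, adjusted p = 0.00515) and was not called with that scaling (0.30, adjusted p = 0.116).

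Other carriers that rose were Slc25a10, the dicarboxylate carrier (0.540 ± 0.511 to 3.22 ± 0.284 in WT, 5.96-fold by the means, adjusted p = 2.27e-06), and Slc25a39, which carries glutathione (5.95 ± 0.401 to 18.5 ± 0.243, log2 fold change 1.49, SE 0.15, adjusted p = 3.97e-07). In WT with gp33 and inhibitor, replicate 2 was at 29.7 for Slc25a39 and at 60.01 for Slc25a3, and the other 2 libraries were at 17.5 and 17.6 and at 33.9 and 36.9. Slc25a17, the cofactor carrier of peroxisomes, rose in both genotypes and was higher in the libraries labelled KO with gp33 (4.88 ± 0.384 against 3.59 ± 0.118, 0.36, SE 0.08, adjusted p = 0.00454).

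The carriers that were highest at rest included Slc25a45, with values of 2.61 to 3.26 without peptide and at most 0.341 with gp33. Slc25a36, a pyrimidine nucleotide carrier, fell with gp33 in WT from 1.71, 1.77 and 1.14 to 0.576, 0.504 and 0.470 (log2 fold change -0.73, SE 0.13, adjusted p = 0.000124). In the libraries labelled KO it was at 1.14, 1.78 and 1.70 without peptide, 1.21, 2.11 and 1.47 with gp33 and 0.437, 0.404 and 0.381 with the inhibitor. With gp33 the libraries labelled KO were higher by 0.76 (SE 0.13, adjusted p = 0.000647), and the inhibitor lowered them by 0.87 (SE 0.13, adjusted p = 0.000171). Slc25a20, the carnitine and acylcarnitine carrier of fatty acid oxidation, was also higher in the libraries labelled KO with gp33, at 1.52 ± 0.182 against 0.819 ± 0.0732 (0.47, SE 0.09, adjusted p = 0.00211). Slc25a44, which carries branched-chain amino acids, was at 1.19 ± 0.127 against 0.678 ± 0.150 (0.38, SE 0.09, adjusted p = 0.00621). Slc25a36 and Slc25a40 each have 1 pseudogene copy.

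**Figure D3:**
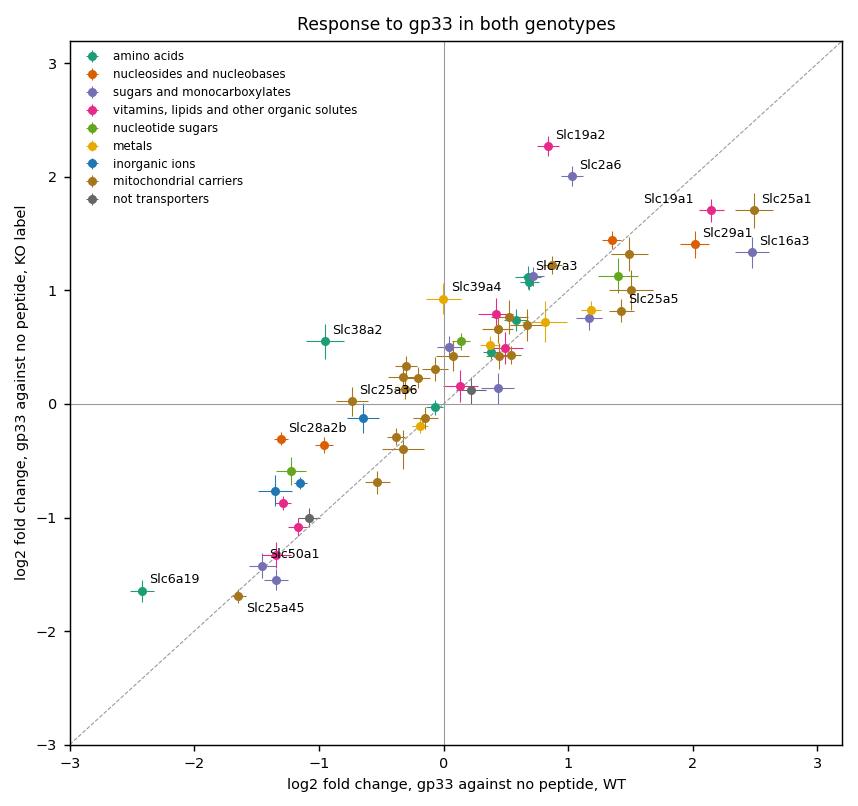
Log2 fold change with gp33 against no peptide of the 63 solute carrier genes, in WT (x axis) and in the libraries labelled KO (y axis), coloured by substrate class with bars of 1 SE; the dashed line marks equal changes. Slc19a2, Slc2a6, Slc38a2 and Slc39a4 lie above the line and Slc16a3, Slc25a1, Slc29a1 and Slc25a5 below it.

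The response to gp33 itself differed between the genotypes in 29 of the 63 members. It was greater or less negative in the libraries labelled KO for 23 of them and smaller or more negative for 6, where 22.2% and 9.47% of protein-coding genes were called. The 23 include Slc12a7, Slc28a2 and Slc28a2b, which reached the minimum only in WT without peptide. Slc7a3 is also included and reached it only in the libraries labelled KO with gp33. Slc6a19 is included too, although its ratio of means with gp33 to without peptide was 0.0252 in WT and 0.0203 in the libraries labelled KO. The 6 were Slc16a3, Slc25a1, Slc29a1, Slc25a5, Slc19a1 and Slc31a1, all of which rose in both genotypes. With a minimum 5 times as high, the split of 23 and 6 became 3 and 4.

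Between the genotypes without peptide, the libraries labelled KO had 1 member called higher and 7 called lower, with a background of 7.07% and 9.29%. The 1 called higher was Slc3a2 (log2 fold change 0.32, SE 0.07, adjusted p = 0.0102). Leaving out any 1 of the 3 libraries labelled KO without peptide, among which the B cell markers differed most, left 7 to 9 members called. Such fits cannot set apart a difference that these libraries share, such as the 6 of 8 B cell markers called lower, and its part was not tested. When only the 6 libraries compared were fitted, none (0) was called higher and 4 lower, and Slc3a2 had an adjusted p of 0.105. With an offset of 0.1, 4 were called higher and 7 lower, and with protein-coding genes rescaled 1 higher and 12 lower.

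With gp33, the libraries labelled KO had 16 members called higher and 6 called lower than in WT, with a background of 21.8% and 8.52%. With a minimum 5 times as high, 3 were called higher and 4 lower. The median difference of the 63 members was 0.11, and it was 0.06 over protein-coding genes. With gp33 and inhibitor, 2 were called higher (Slc3a2 and Slc2a6) and 3 lower (Slc16a3, Slc25a1 and Slc43a3), with a background of 2.86% and 3.53%. These 5 were 2 without replicate 3 of the libraries labelled KO with inhibitor. They were 3 without replicate 1 or replicate 2 of that group, and 3 without replicate 2 of WT with inhibitor. When only the 6 libraries compared were fitted in limma, none (0) of the members was called, 13 had an unadjusted p under 0.05, and the adjusted p of the 5 was between 0.0912 and 0.147. Slc43a3 was not called in 15 of the 18 fits that left out 1 library (adjusted p between 0.0506 and 0.186). With protein-coding genes rescaled to a common total, 2 were called higher and 5 lower.

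These 2 comparisons share no library. The 16 members that were higher with gp33 had a median difference of 0.56 with gp33 and of 0.13 with the inhibitor added, and the difference was smaller in size with the inhibitor for all 16. The 6 lower members had medians of -0.53 and -0.35, and the difference was smaller for 5 of them. The exception was Slc37a4, the glucose-6-phosphate carrier, at -0.49 in both. Members were picked for their difference with gp33, so a smaller value elsewhere is partly fixed by the choice, and no test of it was made. Slc37a4 was not called with gp33 without replicate 3 of the libraries labelled KO (-0.46, adjusted p = 0.0547) or replicate 2 of WT (-0.46, adjusted p = 0.063).

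**Figure D4:**
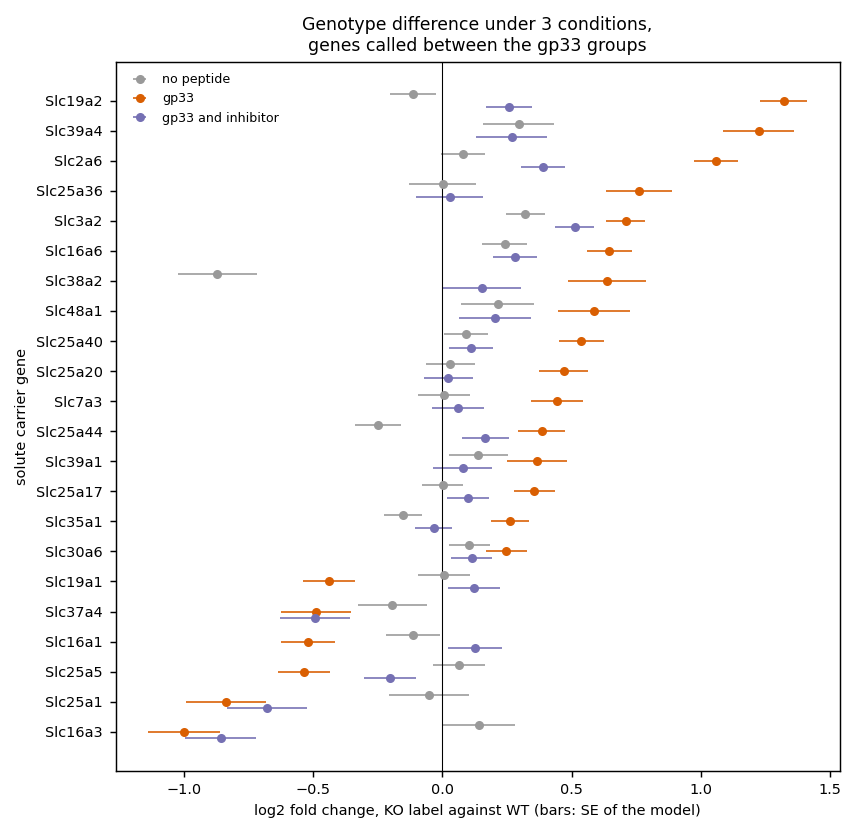
Difference between the libraries labelled KO and WT (log2 fold change, x axis, bars of 1 SE) without peptide, with gp33 and with gp33 and inhibitor, for the 22 solute carrier genes called between the gp33 groups (y axis). The orange points with gp33 lie farther from 0 than the purple points with inhibitor for all but Slc37a4.

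The inhibitor called few members in WT: 1 higher and 6 lower, with a background of 4.41% and 6.59%. The 7 were 3 without replicate 1 or replicate 2 of WT with gp33. With median-of-ratios scaling 2 were called higher and 3 lower. Among libraries labelled KO, 3 members were called higher and 20 lower, with a background of 8.24% and 27.5%. With a minimum 5 times as high, these were 3 higher and 4 lower. The median change of the 63 members was -0.09 in WT and -0.18 in the libraries labelled KO, and over protein-coding genes it was -0.01 and -0.10. The 3 called higher in the libraries labelled KO were Slc25a5, Slc16a1 and Slc50a1. Slc50a1 (log2 fold change 0.33, adjusted p = 0.0371) was not called when any 1 of the 6 libraries compared was left out (adjusted p between 0.069 and 0.112), nor without replicate 2 of WT with gp33 (0.0502). With the library letter as a replicate block its adjusted p was 0.0598, and 2 members were called higher.

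The effect of the inhibitor differed between genotypes for 9 members, 2 upward and 7 downward, with a background of 2.45% and 9.90%. These 9 were 5 without replicate 2 of either group labelled KO with gp33, or without replicate 2 or replicate 3 of WT with gp33. With a minimum 5 times as high, 2 were upward and 0 downward.

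**Figure D5:**
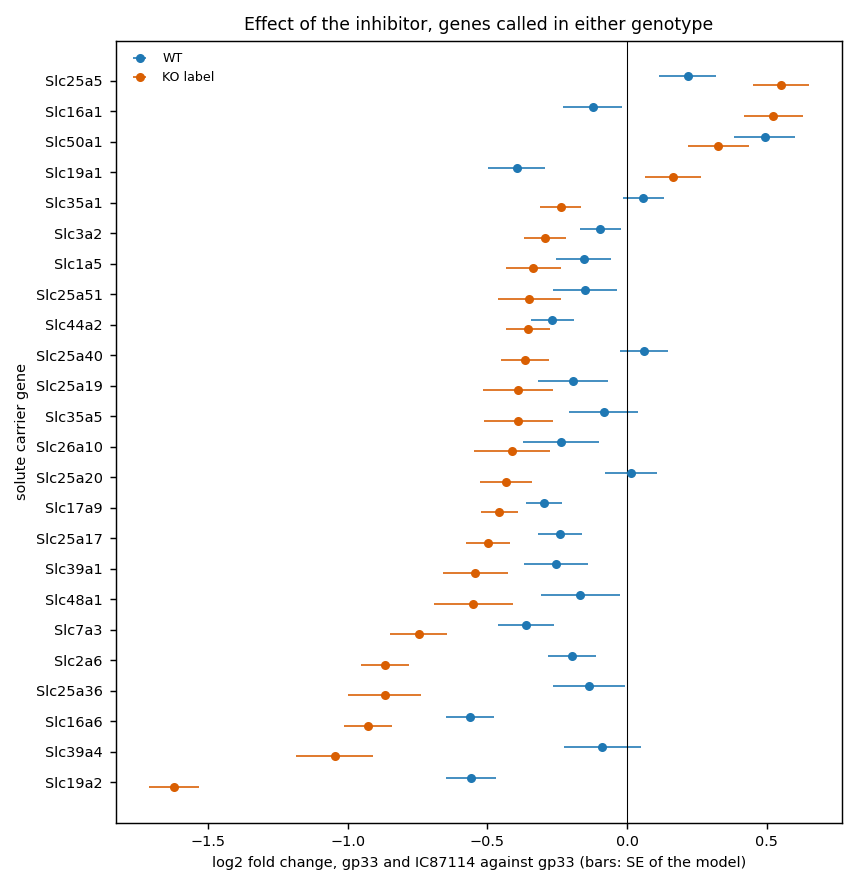
Effect of IC87114 in cultures with gp33 (log2 fold change against gp33 alone, x axis, bars of 1 SE) in WT (blue) and in the libraries labelled KO (orange), for the 24 solute carrier genes called in either genotype (y axis). Slc19a2 is at -0.56 in WT and -1.62 in the libraries labelled KO, and Slc39a4 at -0.09 and -1.05.

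Transporters with other kinds of symbol were read from a list of 43, of which 19 were tested. In WT 10 were called higher and 5 lower with gp33, beside 39.1% and 38.6% of protein-coding genes. They included Tfrc, the transferrin receptor that takes up iron (1.12 ± 0.236 to 18.1 ± 1.03, log2 fold change 3.18, adjusted p = 3.2e-12), and Sfxn1, a mitochondrial serine carrier (1.36 ± 0.137 to 7.17 ± 0.339, 1.79, adjusted p = 7.26e-11). The glucose transporter Slc2a1 was lower in the libraries labelled KO with gp33, by 0.50 on the log2 scale (adjusted p = 0.000143). Slc2a3, another glucose transporter, was lower by 0.85. This is given with no p because Slc2a3 reached the minimum only in WT with gp33, which partly fixed the difference.

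Of 30 regulators of the amino acid response and of growth, 22 were tested, and with gp33 the libraries labelled KO had 9 of them called higher than in WT and none (0) called lower, beside 21.8% and 8.52% of protein-coding genes. At an unadjusted p under 0.05 in limma, 12 were higher and 1 lower. Atf4, which induces amino acid carriers and synthesis enzymes under amino acid shortage, was at 68.7 ± 1.87 in WT and 108 ± 2.18 in the libraries labelled KO (log2 fold change 0.64, adjusted p = 0.000403). Among genes known as its targets, Chac1 was at 1.31 ± 0.189 and 4.36 ± 0.229 (1.21, adjusted p = 1.72e-08). Sesn2, which is among the 9, was at 0.388 ± 0.0826 and 2.80 ± 0.276 (1.45). It is given with no p because it reached the minimum only in the libraries labelled KO with gp33, which partly fixed this difference. Among libraries labelled KO, 11 of the 22 were called lower with the inhibitor than with gp33 alone, beside 27.5% of protein-coding genes, Sesn2 at 0.235 ± 0.0474 and Chac1 at 0.652 ± 0.0829 among them. Both reached the minimum only with gp33 alone, so their lower values with the inhibitor are partly fixed by the rule. Myc, which drives growth after antigen recognition, was at 174 ± 17.2 in WT and 174 ± 16.6 in the libraries labelled KO with gp33.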

How the data were processed

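The authors deposited 1 table of 23414 genes in 18 libraries, named as normalized counts. Its values behave as log2 of a value plus 1, and the deposited log2 values were taken back to a linear scale as normalized values. No source used here states how they were normalized, nor their log base or offset. GRCm38 and GRCm39 are listed as genome builds in the submitters' processing notes, with no role given. Which aligner and counter were used is not given in the sources used here. Values are not whole reads, so the depth is unknown and no counting interval is given. Per library, normalized values added up to 521782 to 630652. Values depend on gene length in an unknown way, so levels were not compared between genes.

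A linear model with 6 group means took log2(value + 1) of the 10257 genes that reached 1 in 3 libraries or more. It was run in limma 3.58.1 (R 4.3.3, statmod 1.5.0) with 12 residual degrees of freedom, and variances were moderated with a trend and robustly. Tests were 2-sided with Benjamini-Hochberg adjustment over all 10257 genes, in 9 contrasts, and the model was tested on simulated data. Errors beside levels are SD over 3 libraries.

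The genes named were, for each of 7 comparisons of 2 groups, the 8 called members that rose most and the 8 that fell most, if their libraries did not overlap. For the 2 differences in response the rule named the 5 largest and the 5 smallest. It also named the 3 members of each class with the smallest p, and 37 fixed genes given whatever their values. Slc46a3, Slc7a3, Slc16a6 and other members picked for their side of the minimum appear with no p for the comparison that the rule fixed. The members, the lists and the tests were chosen with earlier results of these data known.

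Gene copies and overlaps were read from GENCODE M21, and promoters from RefSeq. Of the members, 16 had a stretch of at least 200 bases with at least 90% identity to another gene, in 9 of them a pseudogene. Exons of 7 overlapped a protein-coding gene on the opposite strand, and exons of 1, Slc10a3, overlapped Ubl4a on the same strand. For Slc10a3, Slc16a6, Slc25a35, Slc25a46 and Slc26a10, a gene found by identity is also a gene that overlaps, so it need not be a separate copy.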

Additional observations from a re-analysis of the deposited data

Results flagged for a closer look

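These results stand out because the response itself was tested and differed between the genotypes, among the genes named by the rule. All are differences of log2 fold changes, the libraries labelled KO minus WT, with adjusted p from limma over all genes tested.

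For the response to gp33, the difference was positive for Slc38a2 (1.51), Slc19a2 (1.43), Slc28a2b (1.00), Slc2a6 (0.98, adjusted p = 5.7e-05) and Slc39a4 (0.93). It was also positive for Slc20a1 (0.52) and Slc3a2 (0.39). The values of Slc28a2b, Slc39a4 and Slc19a2 are no independent sign of a difference. Slc28a2b reached the minimum only in WT without peptide, Slc39a4 only in the libraries labelled KO and Slc19a2 only with gp33 alone. Slc2a6, Slc16a3 and Slc19a1 reached it only with gp33, which fixed the direction of their response though not its difference between genotypes. The difference was negative for Slc16a3 (-1.14, adjusted p = 0.000778), Slc25a1 (-0.78), Slc29a1 (-0.61), Slc25a5 (-0.60, adjusted p = 0.00703) and Slc19a1 (-0.44).

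The difference of Slc20a1 (adjusted p = 0.048) was not called in 15 of 18 fits that left out 1 library, and was 0.35 without replicate 2 of the libraries labelled KO without peptide. That of Slc19a1 (adjusted p = 0.0343) was not called in 6 of them. These left out replicate 1 or 2 of WT with gp33, replicate 1 of WT without peptide, replicate 2 or 3 of the libraries labelled KO with gp33 or replicate 1 of those without peptide, and the adjusted p was between 0.0737 and 0.093.

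For the effect of the inhibitor, the difference was positive for Slc16a1 (0.65) and Slc19a1 (0.56). It was negative for Slc19a2 (-1.06), Slc39a4 (-0.96, with the same limit for both), Slc25a36 (-0.73), Slc2a6 (-0.67) and Slc43a3 (-0.46). That of Slc19a1 (adjusted p = 0.0235) was not called without replicate 1 or 2 of WT with gp33, replicate 2 or 3 of the libraries labelled KO with gp33 or replicate 2 of those with inhibitor, with an adjusted p between 0.055 and 0.069. That of Slc25a36 (adjusted p = 0.0216) was not called without replicate 2 or 3 of WT with gp33, replicate 2 of the libraries labelled KO with gp33 or replicate 2 or 3 of those with inhibitor, with an adjusted p between 0.0502 and 0.0569. That of Slc43a3 (adjusted p = 0.0173) was not called without replicate 3 of WT with gp33 (adjusted p = 0.0546) or replicate 1 of the libraries labelled KO with inhibitor (adjusted p = 0.051).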

How the results depend on the processing

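Of 152 calls of named genes, 114 were kept under every one of up to 18 fits that left out 1 library and 10 other settings, 38 were lost under 1 or more, and 0 changed direction. The depth is unknown, and the number of libraries limits the precision.

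With a minimum 5 times as high, 19 members entered the fit, and the members called were 18 for stimulation in WT (52 as reported), 17 in the libraries labelled KO (53), 2 for the inhibitor in WT (7) and 7 in the libraries labelled KO (23). For the genotypes they were 2 without peptide (8), 7 with gp33 (22) and 2 with gp33 and inhibitor (5), and for the differences in response 7 (29) and 2 (9). Fewer members entered this fit, which lowers the counts. The split by direction changed too. Between the genotypes with gp33, 3 were higher and 4 lower (16 and 6 as reported). For the difference in the gp33 response it was 3 and 4 (23 and 6). The inhibitor in the libraries labelled KO gave 3 and 4 (3 and 20), and the difference in its effect 2 and 0 (2 and 7). Stimulation gave 14 and 4 in WT (30 and 22) and 15 and 2 in the libraries labelled KO (37 and 16).

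With an offset of 0.1, 3 were called between the genotypes with gp33 and inhibitor and 5 for the difference in the inhibitor effect. Fitting only the libraries compared gave 0 between the genotypes with gp33 and inhibitor, 4 without peptide and 2 for the inhibitor in WT. With protein-coding genes alone, rescaled to a common total, 13 were called without peptide and 11 for the inhibitor in WT. The cause of these changes was not tested.

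Leaving out 1 library gave 49 to 54 and 51 to 55 calls for stimulation, 3 to 8 and 17 to 26 for the inhibitor in WT and in the libraries labelled KO, and 7 to 12, 18 to 26 and 2 to 6 between the genotypes. It gave 21 to 32 and 5 to 10 for the 2 differences in response.

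The replicate numbers are not said to pair the libraries, and their deviations correlated between -0.03 and 0.22 within a genotype, over 0.1 in 4 of 18 pairs. Across genotypes 0 of 27 pairs were over 0.1. With the library letter as a replicate block, 4 members were called for the inhibitor in WT, and with the replicate number as a replicate block 5. The other counts stayed within 1.5 times of those reported.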
